A study of Mus musculus with 12 samples.

Results

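Collagens are the main structural proteins of the extracellular matrix, and the mouse genes for their chains carry symbols made of Col, a type number, the letter a and a chain number. Every gene whose deposited symbol has this form was taken, which gave 44 of the 39017 genes in the count table. They fall into 11 fibrillar genes, 8 genes of basement membranes and 25 others, and 35 of the 44 had a mean of at least 10 counts over the 12 libraries (9, 8 and 18 of the classes). The same 35 genes passed the filter on low counts and were tested.

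Each collagen molecule is a triple helix of chains that fold in the endoplasmic reticulum after prolines and lysines have been hydroxylated. Fibrillar collagens such as types I, III and V lose their propeptides outside the cell and line up into cross-linked fibres, whereas type IV forms the sheet-like network of basement membranes and type VI forms beaded filaments beside them. In the adrenal, fibrous collagen is known from the capsule and the vessel walls, and type IV collagen from the basement membranes around groups of cortical cells and along the sinusoids.

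RNA was sequenced from whole adrenals of 6 control (Ctrl) and 6 βCat-GOF female mice, 10 to 11 weeks old, on a mixed sv129-C57Bl/6 background. Controls had the genotype ASCre/+, so they carry Cre too, and βCat-GOF mice were ASCre/+ ::Ctnnb1fl(ex3)/+. The Cyp11b2 (AS) locus drives Cre in cells of the zona glomerulosa (zG), the outer, aldosterone-producing layer of the cortex, where it deletes exon 3 from 1 copy of Ctnnb1 and thereby stabilises β-catenin. The whole gland was extracted, so a value averages zG, zona fasciculata (zF), medulla, capsule and vessels, and fewer cells of a type cannot be told apart from less RNA per cell.

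Between 13484675 and 25625494 reads per library were counted on genes, with no difference in totals between groups beyond that between mice (p = 0.777, two-sided exact permutation test). A count of 3 was then worth 0.117 to 0.222 CPM. Ctnnb1 had 20273 to 22606 normalized counts in Ctrl and 19229 to 22432 in βCat-GOF adrenals (log2 fold change -0.023, SE 0.082, adjusted p = 0.907), which does not test the labels because the loss of 1 exon need not change the count of a gene. When all tested genes were clustered, βCat-GOF 1 and 2 joined the 6 controls, so genes that pass the test between the groups are given with and without them. In 3 pairs of libraries (Ctrl 1 and 2, Ctrl 3 and 4, βCat-GOF 1 and 2) one label extends the other, and it is not stated whether such a pair comes from separate animals. The counts of these pairs differed beyond sampling noise (chi-square per degree of freedom 42.7 to 46.1, and 16.6 to 148 in the other 27 pairs within a group). Each library was counted as 1 mouse, and fits that drop 1 library of each such pair are given beside the genes that pass. Animal labels share their first number within the Ctrl group and, apart from βCat-GOF 5, within the βCat-GOF group, so genotype and any litter or batch marked by that number cannot be told apart. Normalized counts are counts divided by the median-of-ratios size factor of the library.

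The sequence before the start of Col16a1, the 1 collagen gene that passed the test, is shown first. It covers chr4:130047590-130047839 on the plus strand of GRCm38.p6 (RefSeq), with a CCAAT motif and a GGGCGG motif in capitals.

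Col16a1: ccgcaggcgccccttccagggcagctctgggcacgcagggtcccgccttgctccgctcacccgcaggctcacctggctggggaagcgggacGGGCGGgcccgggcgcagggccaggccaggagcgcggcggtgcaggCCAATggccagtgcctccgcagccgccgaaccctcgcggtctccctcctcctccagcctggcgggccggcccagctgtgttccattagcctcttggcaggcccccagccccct

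On both strands, CCAAT was found in 33.9% and GGGCGG in 32.7% of the 32851 RefSeq promoter windows of the same 250 bases. Letters among those bound by the TCF/LEF partners of β-catenin were also searched. CTTTGAA was found in 4.46% of all windows, CTTTGAT in 3.21%, CTTTGTA in 3.20% and CTTTGTT in 5.03%, and none of them is in the Col16a1 window. At least 1 of these 4 was in the window of 6 of the 29 described collagen genes with a RefSeq promoter entry (Col13a1, Col15a1, Col20a1, Col28a1, Col6a2 and Col9a2) and in 14.8% of all windows. A match is a description of letters only.

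The type IV genes lie head to head in pairs, and the joined starts are shown because the levels of each pair are set side by side further on. The 5′ ends of Col4a1 (minus strand) and Col4a2 (plus strand) share the 22 bases chr8:11312805-11312826, and 71 bases separate Col4a4 (minus strand) from Col4a3 (plus strand) at chr1:82586850-82586920. Both are from GRCm38.p6, the first on the plus and the second on the minus strand.

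Col4a1 and Col4a2: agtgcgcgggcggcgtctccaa

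Col4a4 to Col4a3: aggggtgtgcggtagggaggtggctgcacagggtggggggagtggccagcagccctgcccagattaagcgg

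The collagen genes passed the test between the groups at about the share of all genes. Of the 35 tested, 1 passed at an adjusted p under 0.05, Col16a1, which was higher in βCat-GOF adrenals, and none passed as lower. That is 2.86% of the collagen genes, where 3.68% of all 14953 genes tested passed (2.16% higher and 1.52% lower). The median standard error of the 35 was 0.23, above the 0.15 of all genes tested. Changes of the same size were thus less likely to pass here. DESeq2, which called 7.3% of the 16901 genes to which it gave an adjusted p, also called only Col16a1 among the collagen genes. The study's cut-offs for fold and base mean were set on the edgeR fit, where the study used DESeq2. They can only drop genes that edgeR called, and they kept Col16a1 and 2.35% of all genes. At an unadjusted p under 0.05, 4 collagen genes were higher and 1 was lower (14.3% of them, against 20.4% of all genes). The values of the groups overlapped for all 35, where 2.78% of all genes tested had groups that did not overlap. Together the 44 genes took 0.201% ± 0.037 of the counts in Ctrl and 0.194% ± 0.040 in βCat-GOF mice (n = 6 per group, SD).

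**Figure D1:**
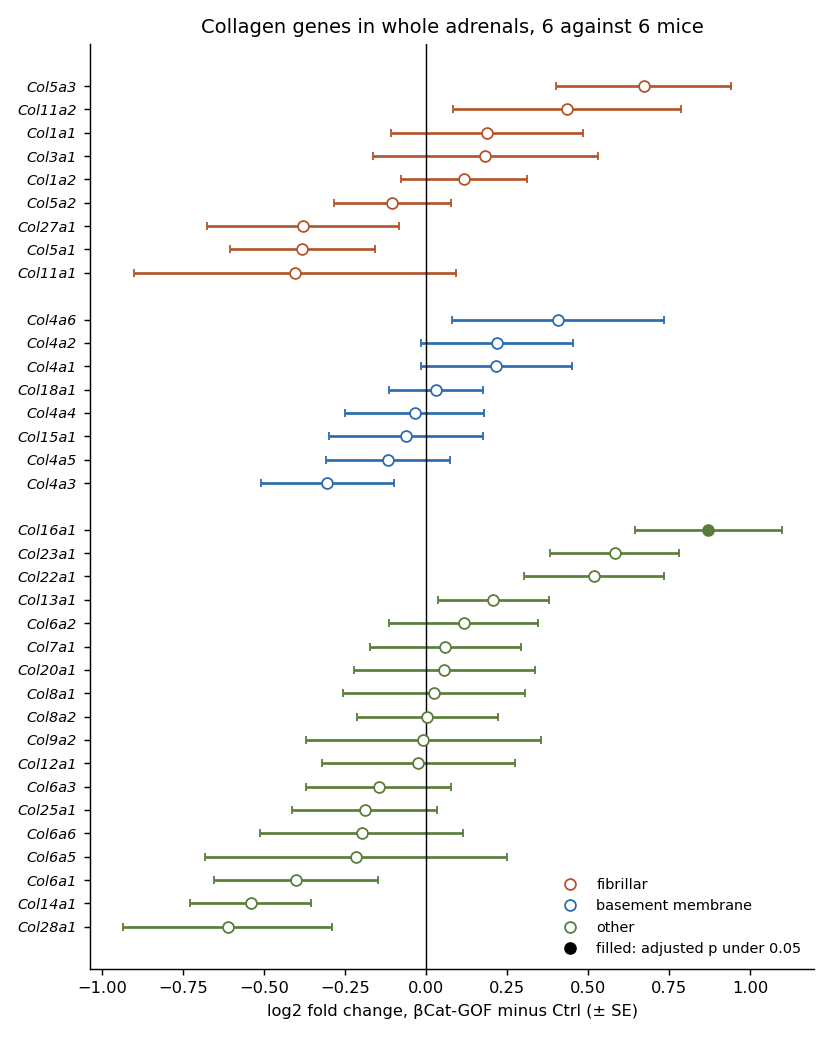
Log2 fold change of the 35 tested collagen genes, βCat-GOF minus Ctrl (x axis), with bars of 1 standard error, by class; filled points have an adjusted p under 0.05. Only Col16a1 is filled, and the values lie between -0.61 (Col28a1) and 0.87 (Col16a1) on both sides of 0 in every class.

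The members differed in level by far more than the groups did. Per length, by the longest protein-coding transcript in GENCODE M21, Col6a1, which encodes the α1 chain of type VI collagen, stood highest with 3356 ± 1349 normalized counts per kb in Ctrl. Next were the basement membrane chains Col4a1 (793 ± 110) and Col4a2 (610 ± 99.2), followed by the fibrillar Col5a3 (438 ± 148), a chain of type V collagen. Col18a1, a multiplexin of vessel and epithelial basement membranes, followed with 299 ± 56.0, and Col1a2 and Col3a1 of the main fibre-forming types with 287 ± 36.3 and 220 ± 21.8. Between Col4a1 and Col1a2, each gene's mean ± SD overlapped that of the next in this order. Col1a1 stood lower, at 83.2 ± 16.5. The order depends on the transcript taken, since with all exons of a gene Col1a2 came to 123 and Col3a1 to 125 counts per kb while Col6a1, Col4a1, Col4a2 and Col5a3 kept the first 4 places.

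**Figure D2:**
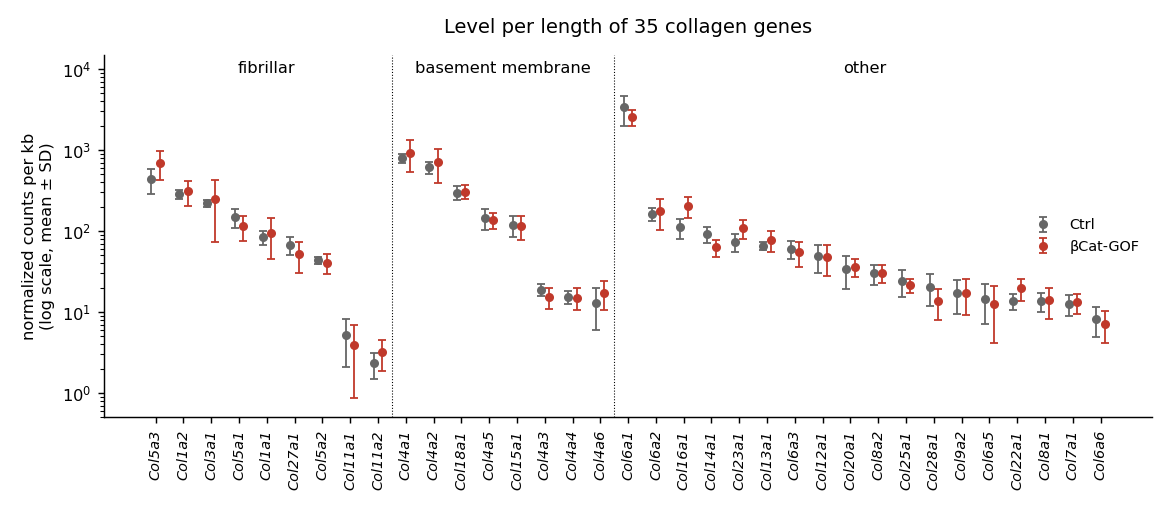
Mean normalized counts per kb of the longest protein-coding transcript (log scale) of 35 collagen genes in Ctrl and βCat-GOF adrenals, with SD as bars (n = 6 mice each), in order of the Ctrl level within each class. Col6a1 lies at 3356 in Ctrl, far above the other type VI chains, and Col11a1 and Col11a2 are lowest.

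The 9 collagen genes under the minimum were Col2a1 and Col24a1 of the fibrillar class and Col9a1, Col9a3, Col19a1, Col6a4, Col10a1, Col17a1 and Col26a1 of the others. Col2a1 and Col10a1, the chains of cartilage, had at most 2 counts in any library, and Col17a1, a transmembrane collagen of hemidesmosomes, at most 3. Col6a4 reached 24 counts in 1 library and Col9a3 at most 14. These genes were not tested.

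Among the fibrillar genes, none of the 9 tested passed (1 at an unadjusted p under 0.05, and none with DESeq2). Their median log2 fold change was 0.12, with 5 above and 4 below 0, where the median of all genes tested was 0.00011. Col1a1, the α1 chain of type I collagen, had 347 to 630 normalized counts in Ctrl (median 487) and 227 to 1065 in βCat-GOF adrenals (median 550.5). The βCat-GOF values ran both below and above all controls, and the log2 fold change was 0.19 (SE 0.30, adjusted p = 0.766). Col1a2, the α2 chain, had 1205 to 1732 (median 1525) in Ctrl and 962 to 2580 (median 1642) in βCat-GOF adrenals (log2 fold change 0.12, SE 0.19, adjusted p = 0.783). Col3a1, whose homotrimer is mixed into type I fibres, had 1037 to 1355 (median 1228) in Ctrl and 515 to 3221 (median 1177) in βCat-GOF adrenals, and its log2 fold change was 0.18 (SE 0.35, adjusted p = 0.810). For these 3 genes the controls lay close together and the βCat-GOF mice on both sides of them.

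Col5a3 was the fibrillar gene with the lowest p. It had 1606 to 3752 normalized counts in Ctrl (median 2852) and 2233 to 6894 in βCat-GOF adrenals (median 3913), with 3 of the 6 βCat-GOF mice above every control. The log2 fold change was 0.67 (SE 0.27), and it did not pass (adjusted p = 0.183). Col5a1, the type V chain that helps to start fibrils, had 711 to 1682 and 696 to 1553 (log2 fold change -0.38, SE 0.22, adjusted p = 0.361), so the 2 chains lay on opposite sides of 0. The ratio of Col5a3 to Col5a1 per length ran from 2.13 to 3.96 in Ctrl and from 4.33 to 7.22 in βCat-GOF mice, without overlap. This ratio was looked at after the values of Col5a3 were seen and is given as a description with no test. Col5a2, Col11a1, Col11a2 and Col27a1 had log2 fold changes between -0.40 and 0.44 with adjusted p of 0.505 or more.

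**Figure D3:**
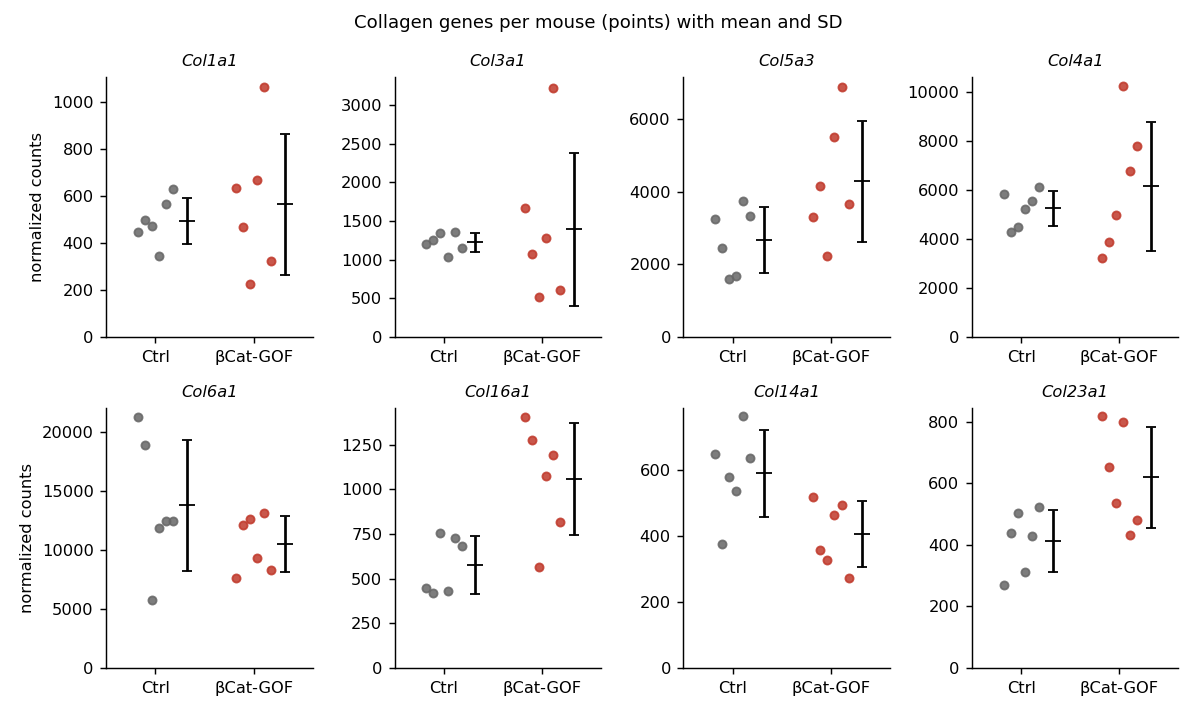
Normalized counts of 8 collagen genes in each of the 6 Ctrl and 6 βCat-GOF mice (points), with the mean and SD as the bar beside them. Col1a1, Col3a1 and Col4a1 are more spread out in βCat-GOF mice, Col6a1 in controls, and Col16a1 is higher in βCat-GOF mice with 1 of them, at 565.5, inside the range of the controls.

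By the SD on the log2 scale, the spread between mice was wider in βCat-GOF adrenals for all 9 fibrillar genes tested. Their median SD on the log2 scale was 0.43 in Ctrl and 0.68 in βCat-GOF mice, while the spread was also wider in βCat-GOF for 69.8% of all genes tested (median SD 0.21 and 0.29). The highest value of Col3a1 was 6.25 times its lowest in βCat-GOF mice and 1.31 times in Ctrl. For Col5a1 these ratios were 2.23 and 2.37, so by this measure its range was wider in Ctrl. Within the βCat-GOF group, βCat-GOF 3 was lowest for 8 of the 9 fibrillar genes and βCat-GOF 5 highest for 6, where βCat-GOF 3 was lowest for 17.3% and βCat-GOF 5 highest for 11.7% of all genes tested. The fibrillar genes took 0.0221% of the counts in βCat-GOF 3 and 0.0789% in βCat-GOF 5, and 0.0318% to 0.0505% in Ctrl. Without βCat-GOF 5 the log2 fold changes of Col1a1, Col1a2 and Col3a1 were -0.083, -0.041 and -0.24. The summed level of 10 fibroblast and capsule markers was also lowest in βCat-GOF 3 (4075 normalized counts) and highest in βCat-GOF 5 (6742) of that group, against 4589 to 6795 in Ctrl. Of these markers 1 of 10 passed, Ly6a, which was lower in βCat-GOF adrenals (log2 fold change -0.62, SE 0.14, adjusted p = 0.0278, and 0.0420 without βCat-GOF 1 and 2), and none was at 0. Their part in the fibrillar values was not tested.

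Among the 8 basement membrane genes none passed the test (0 at an unadjusted p under 0.05, and none with DESeq2), and their median log2 fold change was -0.0023 with 4 on each side of 0. Col4a1 and Col4a2, the chains of the common type IV network, had 4288 to 6110 (median 5386) and 3312 to 4725 (median 3763) normalized counts in Ctrl, and 3220 to 10252 (median 5874) and 2639 to 8117 (median 4229) in βCat-GOF adrenals. The βCat-GOF mice lay on both sides of the controls, with βCat-GOF 4 highest for both genes. The log2 fold changes were 0.22 for each (SE 0.23, adjusted p = 0.647 for Col4a1 and 0.645 for Col4a2). Without βCat-GOF 4 they were 0.0085 and -0.020, and without βCat-GOF 1 and 2 they were 0.49 and 0.48 (adjusted p = 0.0845 and 0.117). Its size thus changed with single mice.

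Col4a3, Col4a4 and Col4a5 encode the chains of the glomerular type IV network of the kidney and were all measured in the adrenal. Col4a5 had 602 to 1380 normalized counts in Ctrl (median 932) and 650 to 1193 in βCat-GOF adrenals (median 893), with a log2 fold change of -0.12 (SE 0.19, adjusted p = 0.775). Col4a3 had 131 to 197 (median 157) and 76.0 to 182 (median 127), and Col4a4 had 123 to 191 (median 158) and 79.6 to 198 (median 165). Their log2 fold changes were -0.30 (SE 0.20, adjusted p = 0.426) and -0.035 (SE 0.21, adjusted p = 0.949). Of the exon bases of Col4a3, 5.65% overlap a gene on the opposite strand, the largest overlap among the described collagen genes. Col4a6, the partner of Col4a5, had 42.7 to 168 in Ctrl (median 74.6) and 75.8 to 202 in βCat-GOF adrenals (median 104), and its highest value was in βCat-GOF 5 (log2 fold change 0.41, SE 0.33, adjusted p = 0.516). Without that mouse the log2 fold change was 0.18, and without Ctrl 2 it was 0.73 (adjusted p = 0.808 and 0.192). Col15a1 and Col18a1, the multiplexins, had log2 fold changes of -0.061 (SE 0.24) and 0.030 (SE 0.14), with adjusted p of 0.916 and 0.933. All groups overlapped.

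Among the 18 other collagen genes 1 passed, and their median log2 fold change was -0.0022 with 9 on each side of 0. Col16a1 (ENSMUSG00000040690), at chr4:130047840-130099283 on the plus strand of GRCm38, encodes a collagen of the fibril-associated class with an interrupted triple helix (FACIT), which binds to fibrils and does not form them. It had 419 to 757 normalized counts in Ctrl (median 564.5) and 565.5 to 1406 in βCat-GOF adrenals (median 1135). Of the 6 βCat-GOF mice, 5 were above every control and βCat-GOF 3 was within their range. The means were 577 ± 161 and 1056 ± 312 (SD, n = 6 mice each), with a log2 fold change of 0.87 (SE 0.23, adjusted p = 0.0496, 1.83-fold). The value stands at the threshold. Of the 12 fits that leave out 1 mouse, Col16a1 passed only in those without Ctrl 3 (adjusted p = 0.0433) and without βCat-GOF 3 (0.0138), and in the other 10 its adjusted p was 0.0599 to 0.110. Without βCat-GOF 1 and 2, its 2 highest mice, the log2 fold change was 0.65 (adjusted p = 0.0908), and without 1 library of each pair with like labels it was 0.80 (adjusted p = 0.0975).

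The other FACIT genes lay on both sides of 0. Col22a1, known from muscle-tendon junctions, had 77.7 to 148 normalized counts in Ctrl (median 129) and 107 to 270.4 in βCat-GOF adrenals (median 169), with a log2 fold change of 0.52 (SE 0.22, adjusted p = 0.195). Col14a1, which binds fibrils through decorin, had 375 to 764 (median 608) and 274 to 519 (median 411), a log2 fold change of -0.54 (SE 0.19, adjusted p = 0.131). Col14a1 was the 1 collagen gene with a lower value at an unadjusted p under 0.05. Col12a1, Col20a1 and Col9a2 had log2 fold changes between -0.023 and 0.057 with adjusted p of 0.934 or more. Of the transmembrane collagens, Col23a1 had 271 to 524 (median 435) in Ctrl and 433 to 818 (median 595) in βCat-GOF adrenals, with 4 of 6 βCat-GOF mice above every control, and did not pass (log2 fold change 0.58, SE 0.20, adjusted p = 0.129). Col13a1 and Col25a1 had log2 fold changes of 0.21 (SE 0.17) and -0.19 (SE 0.22). Col28a1 had 37.5 to 126 in Ctrl and 41.3 to 104 in βCat-GOF adrenals (log2 fold change -0.61, SE 0.32, adjusted p = 0.305). Col7a1 of anchoring fibrils and the short-chain Col8a1 and Col8a2, which form networks below endothelium, had log2 fold changes between 0.0041 and 0.059.

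Type VI collagen is assembled from an α1, an α2 and a further chain, mostly α3. The 3 genes were at very unequal levels. Col6a1 (ENSMUSG00000001119), at chr10:76708792-76726168 on the minus strand, had 5728 to 21219 normalized counts in Ctrl (median 12453) and 7622 to 13088 in βCat-GOF adrenals (median 10701), with a log2 fold change of -0.40 (SE 0.25, adjusted p = 0.396). The controls covered the whole range of the βCat-GOF mice. Without Ctrl 1 the log2 fold change was -0.23 and without Ctrl 3 it was -0.55 (adjusted p = 0.647 and 0.160). Col6a2 (ENSMUSG00000020241), at chr10:76595762-76623630 on the same strand, had 572.5 to 943 (median 774) and 447 to 1413 (median 736), a log2 fold change of 0.12 (SE 0.23, adjusted p = 0.819). Col6a3 had 343.5 to 781 (median 639) and 312 to 888 (median 527), a log2 fold change of -0.15 (SE 0.22, adjusted p = 0.759). Per length Col6a1 was 21.9 ± 10.1 times Col6a2 in Ctrl (6.89 to 34.7 in single mice) and 16.6 ± 8.32 times in βCat-GOF mice (SD, 6 mice each), and with all exons of each gene 36.6 ± 16.9 times in Ctrl. No exon of another annotated gene overlaps those of Col6a1 or Col6a2 in GENCODE M21. Col6a5 and Col6a6, which can take the place of α3, had 48.9 to 202 and 47.5 to 121 in Ctrl and 40.3 to 227 and 31.6 to 94.8 in βCat-GOF adrenals, with log2 fold changes of -0.22 (SE 0.47, adjusted p = 0.836) and -0.20 (SE 0.31, adjusted p = 0.768).

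Chains that share a molecule, a start or, for Col1a1 and Col3a1, a fibre were compared across the 12 mice in 10 pairs. This was done on log2(normalized counts + 1), with permutation tests on 100000 random pairings, two-sided, and p adjusted over the 10 pairs. Col1a1 and Col1a2 were closest, with Pearson's r = 0.994 and Spearman's rho = 0.986 (permutation p = 1e-05 each, the smallest they can give, adjusted p = 5e-05), and r = 0.981 without the 2 mice farthest from the median. Col4a1 and Col4a2 gave r = 0.970 and rho = 0.958 (the same permutation p and adjusted p), and 0.936 without 2 mice. Within the groups their r was 0.792 in Ctrl and 0.992 in βCat-GOF mice (exact permutation p = 0.075 and 0.0014). Their ratio per length was 1.31 ± 0.13 in Ctrl and 1.30 ± 0.073 in βCat-GOF mice, so it stayed within 1.16 to 1.52 in all 12. Col1a1 and Col3a1 gave r = 0.924 and rho = 0.846 (permutation p = 3e-05 and 0.00094, adjusted 0.0001 and 0.0031), and r = 0.757 without 2 mice. Within the groups r was 0.53 in Ctrl (exact permutation p = 0.288) and 0.974 in βCat-GOF mice (exact permutation p = 0.0028).

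The type VI pairs were unlike each other. Col6a2 and Col6a3 gave r = 0.754 and rho = 0.636 (permutation p = 0.0051 and 0.030, adjusted 0.0073 and 0.051), and 0.414 without βCat-GOF 3 and 5, so this relation rests on those mice. Col6a1 was not seen to follow either. With Col6a2 it gave r = -0.162 and rho = -0.049 (permutation p = 0.62 and 0.89, adjusted the same), with r = -0.083 without 2 mice, -0.509 within Ctrl and 0.103 within βCat-GOF mice (exact permutation p = 0.338 and 0.840). With Col6a3 it gave r = 0.217 and rho = 0.469 (permutation p = 0.50 and 0.13, adjusted 0.56 and 0.14), and 0.208 without 2 mice. The points of all pairs share their libraries and size factors. The permutations treat the 12 libraries as separate mice of 1 set. The correlations of chains were not repeated without βCat-GOF 1 and 2 or without 1 library of each pair with like labels.

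**Figure D4:**
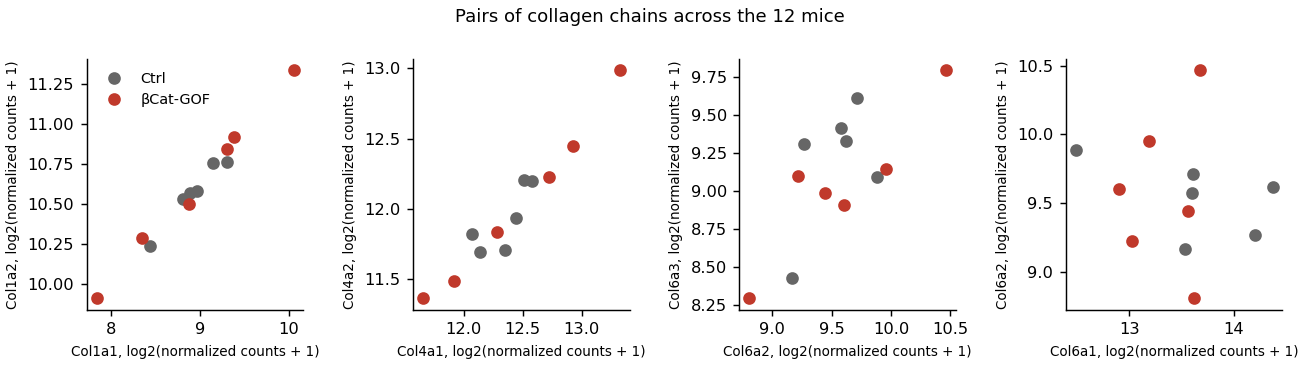
Pairs of collagen chains across the 12 mice, each point 1 mouse, on log2(normalized counts + 1). Col1a1 with Col1a2 (r = 0.994) and Col4a1 with Col4a2 (r = 0.970) lie along a line, Col6a2 with Col6a3 (r = 0.754) less so, and Col6a1 with Col6a2 (r = -0.162) shows no line.

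The remaining pairs lay between these. Col8a1 and Col8a2 gave r = 0.849 and rho = 0.790 (permutation p = 0.00044 and 0.0033, adjusted 0.0011 and 0.0083), Col4a3 and Col4a4 r = 0.795 and rho = 0.622 (0.0034 and 0.035, adjusted 0.0068 and 0.051), and Col4a5 and Col4a6 r = 0.760 and rho = 0.622 (0.0041 and 0.034, adjusted 0.0069 and 0.051), all by permutation. Without the 2 farthest mice r was 0.743, 0.695 and 0.558. Col5a1 and Col5a2, which share the common type V molecule, gave r = 0.507 and rho = 0.545 (permutation p = 0.080 and 0.069, adjusted 0.10 and 0.087), and 0.439 without 2 mice. The reads of overlapping starts could be shared by Col4a1 and Col4a2 over 22 bases only.

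The spread of Col6a1 among controls lay beside spreads in more than 1 marker list. Ctrl 1, highest for Col6a1, had the lowest sum of 10 chromaffin cell markers (80360 normalized counts), and Ctrl 3, lowest for Col6a1, had the highest (244849). Among controls, Ctrl 3 also had the highest sums of fibroblast and capsule markers (6795) and of zG markers (40658). For the chromaffin cell markers the relation to Col6a1 was as follows. Over the 12 mice r was -0.50 and rho -0.434 (permutation p = 0.097 and 0.16, adjusted over 4 marker lists 0.28 and 0.46), and 0.09 without these 2 mice, on which the relation rests. Within the groups r was -0.81 in Ctrl (exact permutation p = 0.0417) and -0.142 in βCat-GOF mice (exact permutation p = 0.806). With the fibroblast and capsule list r was -0.389 over the 12 mice (rho -0.273, permutation p = 0.21 and 0.39, adjusted 0.28 and 0.52), -0.251 without 2 mice, -0.894 in Ctrl (exact permutation p = 0.0194) and -0.122 in βCat-GOF mice (exact permutation p = 0.718). With zG markers r was -0.429 (rho -0.378) and with zF markers -0.010 (rho 0.098), with permutation p of 0.17 and 0.98 for r and 0.23 and 0.77 for rho. Within Ctrl r was -0.539 with zG and -0.106 with zF markers (exact permutation p = 0.274 and 0.797). The exact permutation p within groups were not adjusted over the 4 lists. All these relations were looked at after the values were seen.

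Of 37 genes for collagen synthesis and assembly, 35 were tested, of which 3 passed as higher and 1 as lower in βCat-GOF mice (11.4%, beside 3.68% of all genes). Their median log2 fold change was 0.11. At an unadjusted p under 0.05 there were 9 (25.7%, beside 20.4% of all genes), 8 higher and 1 lower. DESeq2 called 4, where it called 7.3% of all genes to which it gave an adjusted p. Of the 35 genes, 4 had all βCat-GOF values above every control and 1 had all below. Groups did not overlap for 2.78% of all genes tested. P4ha3 (ENSMUSG00000051048), at chr7:100285520-100319699 on the plus strand, encodes a catalytic subunit of prolyl 4-hydroxylase, the enzyme whose product lets the triple helix hold at body temperature. It had 4.20 to 28.2 normalized counts in Ctrl (median 11.0) and 49.3 to 171 in βCat-GOF adrenals (median 109). The groups did not overlap, and the rise was 3.01 on the log2 scale (SE 0.40, adjusted p = 0.00133, 8.04-fold). It passed in every other fit in which it had a value, and without βCat-GOF 1 and 2 the log2 fold change was 2.68 (adjusted p = 0.00268). Without 1 library of each pair with like labels it was 3.38 (adjusted p = 0.00293). Its level was low, at 12.7 ± 8.20 and 105 ± 42.4.

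P4ha2, another catalytic subunit of the same enzyme, had 562 to 705 (median 627) in Ctrl and 735.5 to 932.5 (median 856) in βCat-GOF adrenals, again without overlap, a rise of 0.44 on the log2 scale (SE 0.084, adjusted p = 0.0109). It passed in every other fit, with 0.41 (adjusted p = 0.0195) without βCat-GOF 1 and 2 and 0.42 (adjusted p = 0.0458) without 1 library of each pair with like labels. P4ha1, the widely expressed subunit, and P4hb, the shared β subunit, had log2 fold changes of 0.37 (SE 0.15, adjusted p = 0.194) and 0.17 (SE 0.13, adjusted p = 0.487) and did not pass. Bmp1, the protease that removes the C-terminal propeptide of fibrillar procollagens, had 727 to 884 (median 811) and 959 to 1215 (median 1036), without overlap, and was higher by 0.39 on the log2 scale (SE 0.081, adjusted p = 0.0188). It was past the threshold in all fits but those without Ctrl 6 (adjusted p = 0.0502) and without 1 library of each pair with like labels (0.0705). Without βCat-GOF 1 and 2 it was higher by 0.40 (adjusted p = 0.0179).

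Tll1, a tolloid protease related to Bmp1, was the 1 gene of this list that was lower. It had 49.6 to 77.7 normalized counts in Ctrl (median 62.7) and 25.9 to 43.4 in βCat-GOF adrenals (median 39.1), without overlap (log2 fold change -0.78, SE 0.19, adjusted p = 0.0400). It passed in 2 of the 12 fits that leave out 1 mouse, with an adjusted p of 0.0388 to 0.0976 over all 12. Without βCat-GOF 1 and 2 the log2 fold change was -0.78 (adjusted p = 0.0413), and without 1 library of each pair with like labels -0.82 (adjusted p = 0.0642). With no filter on low counts Tll1 did not pass (adjusted p = 0.0736). The collagen chaperone Serpinh1 and the lysyl hydroxylases Plod1, Plod2 and Plod3 did not pass, with log2 fold changes between -0.052 and 0.19. The cross-linking enzymes Lox and Loxl4 had log2 fold changes of 0.52 (SE 0.26, adjusted p = 0.285) and 1.22 (SE 0.57, adjusted p = 0.241). These 8 genes were added to the account after their values were seen, with P4ha1 and P4hb among them.

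**Figure D5:**
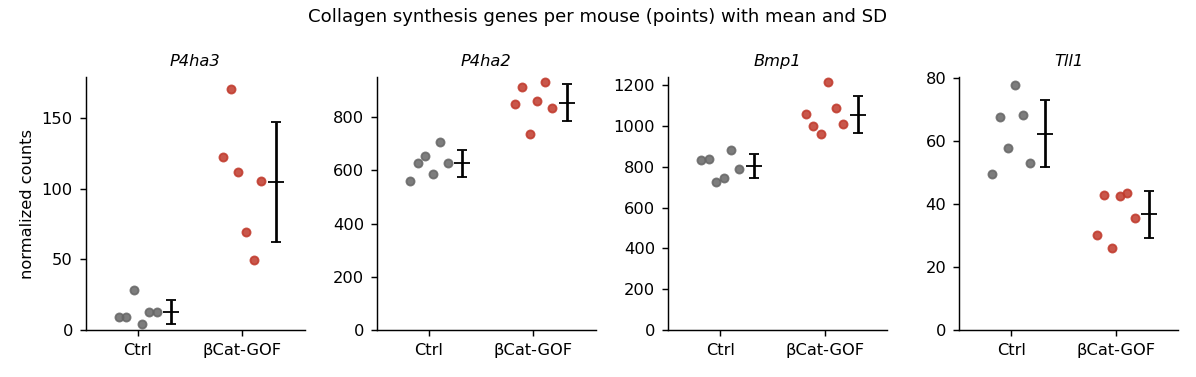
Normalized counts of P4ha3, P4ha2, Bmp1 and Tll1 in each of the 6 Ctrl and 6 βCat-GOF mice (points), with the mean and SD as the bar beside them. The 4 genes shown are those of the list that passed the test. Their groups do not overlap, with P4ha3, P4ha2 and Bmp1 higher and Tll1 lower in βCat-GOF mice. Groups did not overlap for 2.78% of all genes tested.

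Genes that break collagen down or bind it come next. None of the 12 tested collagenases, gelatinases and their inhibitors passed (3 at an unadjusted p under 0.05, 1 with DESeq2), and their median log2 fold change was -0.12. Mmp13, a collagenase, had the lowest adjusted p of them (log2 fold change -1.29, SE 0.37, adjusted p = 0.0730). Of 9 collagen receptors tested 1 passed, Itga1, the α subunit of a collagen-binding integrin, and 3 with DESeq2 (median 0.045), where 3.68% of all genes passed with edgeR and 7.3% with DESeq2. Itga1 had 654 to 819 normalized counts in Ctrl (median 753.5) and 413 to 668 in βCat-GOF adrenals (median 532), so that 1 βCat-GOF mouse reached the range of the controls. Its log2 fold change was -0.45 (SE 0.12, adjusted p = 0.0483), it passed in 2 of the 12 fits that leave out 1 mouse (adjusted p 0.0177 to 0.102), and without βCat-GOF 1 and 2 it was -0.61 (adjusted p = 0.00559). Without 1 library of each pair with like labels it was -0.55 (adjusted p = 0.0316). Itga1 did not pass with no filter on low counts (adjusted p = 0.0686) or with 10 counts in every library (0.0509). None of the 16 matrix partners tested, such as nidogens and small proteoglycans, passed (1 at an unadjusted p under 0.05, none with DESeq2, median -0.13).

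Marker lists of the cells in the gland moved in part with the groups, and their counts stand beside 3.68% of all genes past the threshold, 20.4% at an unadjusted p under 0.05 and 7.3% with DESeq2. Of 8 zG markers 4 were higher in βCat-GOF adrenals (Dab2, Agtr1a, Agtr1b and Vsnl1), with a sum of 26323 to 40658 normalized counts in Ctrl and 36427 to 65436 in βCat-GOF mice and no marker at 0. P4ha3, P4ha2, Bmp1 and Col16a1 were also higher in βCat-GOF adrenals. How the zG sums relate to those genes from mouse to mouse, and their part in those values, was not tested. Of 6 zF markers 2 were higher (Akr1b7 and Mrap), and 1 had a log2 fold change below 0. The zF markers summed to 349831 to 426764 normalized counts in Ctrl. In βCat-GOF mice their sum ran from 208313 to 663307, on both sides of the controls. Of 10 macrophage markers 2 were lower (Adgre1 and Mrc1). The macrophage markers summed to 9930 to 18965 normalized counts in Ctrl and 8134 to 13813 in βCat-GOF mice, none was at 0, and their part in the lower values of Tll1 and Itga1 was not tested. At an unadjusted p under 0.05 there were 6 zG and 3 zF markers, all higher. There were also 8 macrophage markers (7 lower and 1 higher) and 3 fibroblast and capsule markers (2 lower and 1 higher). DESeq2 called 6, 2, 2 and 1 in the same order. Of the 9 markers that passed, 7 also passed without βCat-GOF 1 and 2 (not Adgre1, adjusted p = 0.0576, and Mrc1, 0.0845), and 6 without 1 library of each pair with like labels (not Adgre1, Mrc1 and Ly6a), all with the same sign. None of the 9 tested markers of pericytes and smooth muscle, 10 of endothelium, 7 of Schwann cells and glia, 10 of chromaffin cells, 7 of adipocytes and 5 of cartilage and bone passed. At an unadjusted p under 0.05 there were 3, 2, 1, 3, 1 and 1 of these, of which 1, 0, 0, 0, 1 and 1 were higher. DESeq2 called 2, 0, 1, 0, 0 and 0. Of the cartilage markers Matn1 was at 0 in all 12 libraries.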

How the data were processed

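RNA-seq of 12 whole adrenals was used. The authors trimmed adapters with cutadapt, aligned reads to mm10 with STAR and counted unique reads per gene with featureCounts 1.4.4. The annotation release and strand setting are not given in the sources used here. The deposited counts were used for all tests. The authors also deposited a signal table, the counts divided by 1 factor per library, which served for gene symbols. No column was left unmapped (0 columns).

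Counts were tested with edgeR 4.0.16 in R 4.3.3 (TMM, filterByExpr, quasi-likelihood test, two-sided, Benjamini-Hochberg adjustment over 14953 genes), on 6 against 6 mice. The test was checked on simulated counts. Mice came from crosses of both lines, with littermates where possible, and p-values measure the spread between these libraries. Alternatives were DESeq2 1.42.0, its size factors, other filters, the study's cut-offs (fold above 1.4, base mean above 100) on the edgeR fit, and sets of libraries left out. The fit without βCat-GOF 1 and 2, the exon length and the marker relations were added after the data were seen. Collagen genes, companion lists and marker lists were chosen with earlier results of these data known. Named in full are genes with an adjusted p under 0.05, the 2 collagen genes of each class highest per length and the type I, III, IV and VI chains; Col14a1, Col22a1, Col23a1 and other collagen genes, and Mmp13, were named after their values were seen. Libraries were clustered by average linkage on 1 minus Spearman's rho of log2(CPM + 1). Positions came from GENCODE M21, promoters from RefSeq. Figures used matplotlib 3.10.9.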

Additional observations from a re-analysis of the deposited data

Results flagged for a closer look

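Of 50 groups of 6 mice (25 named genes), 3 held a mouse far from the other 5 by Dixon's ratio, where chance alone gives about 1 in 20. Col4a6 had 202 normalized counts in βCat-GOF 5 and 75.8 to 104 in the other βCat-GOF mice. P4ha3 had 28.2 in Ctrl 3 and 4.20 to 12.6 in the other controls. Ctnnb1 had 19229 in βCat-GOF 5 and 21310 to 22432 in the other βCat-GOF mice.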

How the results depend on the processing

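The count of 1 collagen gene called higher (Col16a1) was 1 with DESeq2's size factors, no filter, 10 counts in every library, DESeq2's test and the study's cut-offs. It was 0 without the 3 libraries whose labels repeat a stem, 0 without βCat-GOF 5, whose label begins with another number, and 0 without βCat-GOF 1 and 2, and it ranged from 0 to 1 when each mouse was left out. The count called lower was 0 in every fit run. Leaving out each mouse gave median log2 fold changes of -0.17 to 0.23 for fibrillar, -0.054 to 0.072 for basement membrane and -0.091 to 0.14 for other collagen genes; without βCat-GOF 5 the fibrillar median was -0.17. Of 455 values of 24 genes (the 19 collagen genes given in full or at an unadjusted p under 0.05 and the 5 companion genes that passed; other named genes are not in this tally), 399 kept direction and side of the threshold, 41 no longer passed and 15 changed sign. This tally counts the fit without βCat-GOF 5 again as the fit without the library with another label number. Each entry holds the same 4 changes of sign and the same 3 values that no longer passed. Without βCat-GOF 5 the values were -0.083 for Col1a1, -0.041 for Col1a2, -0.24 for Col3a1 and -0.10 for Col6a2. Leaving out each mouse gave -0.083 to 0.35 for Col1a1, -0.041 to 0.23 for Col1a2, -0.24 to 0.35 for Col3a1, -0.020 to 0.35 for Col4a2, -0.12 to 0.093 for Col4a4, -0.21 to 0.020 for Col4a5, -0.10 to 0.24 for Col6a2 and -0.35 to 0.010 for Col6a6. Without a change of sign it gave 0.18 to 0.73 for Col4a6, -0.55 to -0.23 for Col6a1, 0.0085 to 0.36 for Col4a1, -0.42 to -0.19 for Col4a3, -0.33 to -0.027 for Col6a3 and -0.53 to -0.046 for Col6a5 (-0.74 without βCat-GOF 1 and 2). The cause was not tested. P4ha3 has no value with at least 10 counts in every library. No paired analysis was possible because the labels pair no animals across the groups. The 9 collagen genes with a mean under 10 counts did not pass the filter on low counts and were not tested. The median standard error of the 35 tested (0.23) was above that of all genes tested (0.15), also for the abundant Col6a1 (0.25).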
